A study of Mus musculus with 43 samples.

Results

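The genes described here encode 10 RNA-binding proteins that regulate splicing and other fates of RNA, namely Qki (called Qk in older annotations), Mbnl1, Mbnl2, Celf1, Celf2, Ptbp1, Ptbp2, Nova1, Rbfox2 and Elavl1. They were chosen by name and not by a cut on a measured value, though earlier results of these data were known. Each of the 10 was found once among the 55416 genes of every count file. The study asked how glial cells of the mouse cerebral cortex differ when lymphocytes are missing, and its 43 bulk RNA-seq libraries hold oligodendrocytes, oligodendrocyte precursor cells (OPCs), astrocytes and microglia. Immunodeficient mice were Rag2-/- (strain B6.Cg-Rag2tm1.1Cgn/J crossed with C57BL/6J) and were compared with immunocompetent littermates, which were Rag2+/- in pairs 1, 2, 3 and 5 and Rag2+/+ in pairs 4 and 6. All were 3 months old, both sexes were used, and the littermates of a pair were of the same sex except in pair 6. Rag2 encodes a subunit of the recombinase that assembles antigen receptor genes, so Rag2-/- mice lack mature B and T cells in the whole body. Oligodendrocytes gave 4 control and 4 Rag2-/- libraries (pairs 1, 3, 5 and 6), OPCs 6 and 5, astrocytes 6 and 6, and microglia 6 and 6.

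The cells were immunopanned, that is, caught one type after another on antibody-coated plates. The antibodies bound CD45 on microglia, PDGFRα on OPCs, the glycolipid GalC on oligodendrocytes and HepaCAM on astrocytes. CD45 is also present on other leukocytes, so the plate for microglia can hold peripheral macrophages. The cell types came from the same mice, and because each type was sequenced on a lane of its own, an effect of the lane cannot be told apart from that of the cell type.

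Splicing regulators bind short motifs in RNA, and the same protein can favour or skip an exon depending on where it sits. QKI is a protein of the STAR family with a KH domain that binds the letters ACUAAC or ACUAAU, often with a shorter copy nearby, in introns and in 3′ untranslated regions (3′ UTRs). It is best known from quaking viable mice, whose myelin stays thin, and it binds, stabilizes and helps to transport the messages of myelin proteins. MBNL and CELF proteins act on shared exons, often in opposite directions. PTBP1 represses neuronal exons, and 1 of the exons it represses is in its own paralog Ptbp2. NOVA1 and RBFOX2 are best studied in neurons and muscle, and ELAVL1, also called HuR, stabilizes messages with AU-rich 3′ UTRs.

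The Qki message itself carries the letters that QKI binds, and the sites below are shown because Qki is the member with the highest expression and its known target Cdkn1b is measured further on. ACTAAC and ACTAAT were searched on the transcript strand in the 3′ UTR of 1 canonical transcript per gene (GENCODE M39 on GRCm39), and the capitals mark the match. The 4 matches shown for Qki lie on the minus strand of chromosome 17 at chr17:10425467-10425496, chr17:10425384-10425413, chr17:10423226-10423255 and chr17:10423192-10423221, in this order, and that of Cdkn1b on the plus strand at chr6:134899829-134899858.
Qki site 1: taataccaacctACTAACtctggactatgt
Qki site 2: ttgagttcctggACTAACactgaagaacgt
Qki site 3: tgtttctgctgcACTAATtgccaggggtgg
Qki site 4: ggaggagcagcaACTAATccatggtaggca
Cdkn1b site: aagttcagaagtACTAATgctcccacagaa

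The Qki 3′ UTR held 5 matches in 7014 bases, or 0.71 per kilobase, where all 3′ UTRs together held 0.36 per kilobase. Qki site 1 and the site shown for Cdkn1b also had a shorter copy, TAAC or TAAT, within the next 20 bases. Among the other members, Celf2 had 2 matches and Mbnl1 and Elavl1 had 1 each, none with a shorter copy, while Celf1, Mbnl2, Ptbp1, Ptbp2, Nova1 and Rbfox2 had none. In the first 500 bases of 14459 3′ UTRs, 15.1% held a match and 3.0% a match with a shorter copy. Qki, Cdkn1b, Celf2 and Mbnl1 had no match in these first 500 bases, and of the members Elavl1 alone had 1. The 3′ UTRs searched for Mbnl2 and Rbfox2 were shorter than 500 bases, at 328 and 350 bases. The lack of a match in these 2 genes therefore says little. These letters are a description of the sequence and do not show binding.

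The libraries held 6499417 to 23118497 counts on genes (median 10447042). Levels are given as CPM, the counts of a gene scaled to the same total in every library. The summed CPM of 8 markers for each type were 16047.8 to 23070.1 for oligodendrocyte markers in oligodendrocytes, 6752.1 to 11091.1 for OPC markers in OPCs, 16577.4 to 21665.7 for astrocyte markers in astrocytes and 9128.4 to 11589.7 for microglia markers in microglia. Markers of other cell types were also read. Oligodendrocyte markers summed to 3857.3 to 5714.1 CPM in astrocytes, astrocyte markers to 2957.4 to 8071.1 CPM in OPCs, and neuron markers to 486.3 to 1989.2 CPM in oligodendrocytes but 62.0 to 147.9 CPM in microglia. Mitochondrially encoded genes took 6.8% to 11.7% of the gene counts in microglia, 22.4% to 36.7% in OPCs, 22.5% to 45.1% in astrocytes and 45.8% to 60.1% in oligodendrocytes. Because this share lowers the CPM of every other gene, tests between cell types were made with TMM. This scaling leaves out the most extreme genes and takes a weighted mean over the rest. Rag2 had 0 to 4 counts in every library, controls included, and so does not check the genotype. Iftap, which overlaps Rag2 in the genome, had 14 to 208 counts in control libraries and 0 to 2 in Rag2-/- libraries. Where bulk values differ, fewer cells of a type and less RNA per cell cannot be told apart.

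Qki was the most expressed member per length in 3 of the 4 cell types. Of the summed CPM per kilobase of exon of all 10 genes, Qki held 59.9% ± 1.8 in astrocytes (SD, n = 12 libraries), 58.5% ± 4.9 in oligodendrocytes (n = 8), 40.8% ± 3.1 in OPCs (n = 11) and 22% ± 1.4 in microglia (n = 12). The highest microglia library, at 23.8%, was below the lowest of the other cell types, an OPC library at 34.3%. In microglia Ptbp1 came first with 37.0% ± 3.5 (n = 12), against 12.7% in OPCs, 10.5% in astrocytes and 4.9% in oligodendrocytes. These shares lie within a library and do not depend on library size, but they depend on the length used. With the length of the canonical transcript in place of all exonic bases, Qki stayed first in oligodendrocytes, OPCs and astrocytes and was 3rd in microglia, after Ptbp1 and Mbnl1. Protein-coding genes with a mean of at least 1 CPM in a cell type (12039 to 13269 genes) were also ranked per exonic length. Among these, Qki was in the top 0.6% in oligodendrocytes, the top 0.8% in astrocytes, the top 1.0% in OPCs and the top 4.7% in microglia.

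**Figure D1:**
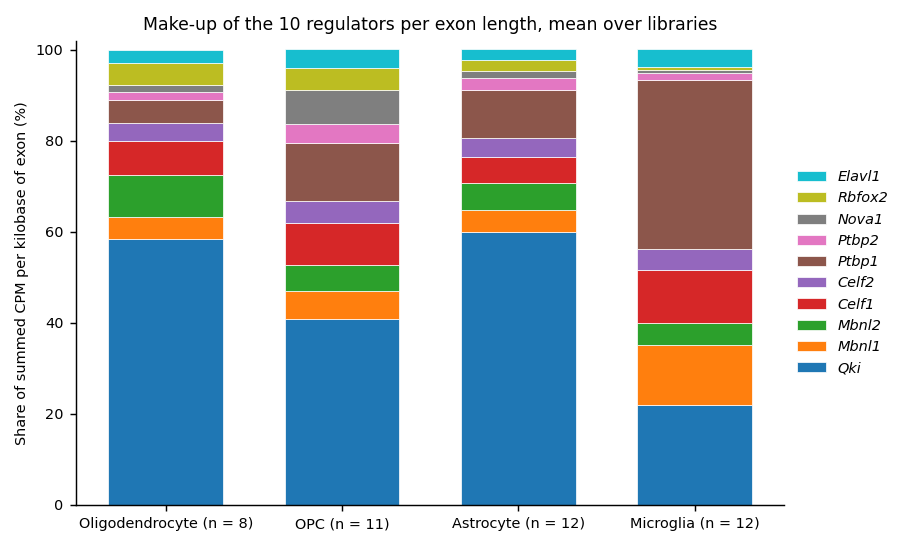
Share of each of the 10 genes in their summed CPM per kilobase of exon, in percent, as the mean over the libraries of each cell type. Qki holds the largest part in oligodendrocytes (58.5%), astrocytes (59.9%) and OPCs (40.8%), and Ptbp1 in microglia (37.0%).

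The levels of most members differed between cell types, as did those of many other genes. In edgeR's quasi-likelihood test over 21368 genes (Benjamini-Hochberg adjusted p under 0.05), 9 of the 10 members were called between oligodendrocytes and OPCs, where 40.7% of all genes tested were called. Between oligodendrocytes and astrocytes 8 members were called against 49.7% of all genes. Between oligodendrocytes and microglia it was 8 against 68%, between OPCs and astrocytes 7 against 42.6%, between OPCs and microglia 9 against 69.5%, and between astrocytes and microglia 9 against 70%. With a fold of at least 2 the members called were, in the same order, 3 against 27.7% of all genes, 2 against 36.9%, 6 against 55.6%, 1 against 28.6%, 5 against 55.7% and 6 against 56.2%. The share of members called was thus above the background at any fold, but near or below it at a fold of at least 2. Single members went opposite ways. Of the 50 called contrasts, 28 kept call and direction under all 22 other settings tried, and of the 23 with a fold of at least 2 only that of Qki between oligodendrocytes and OPCs did not.

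**Figure D2:**
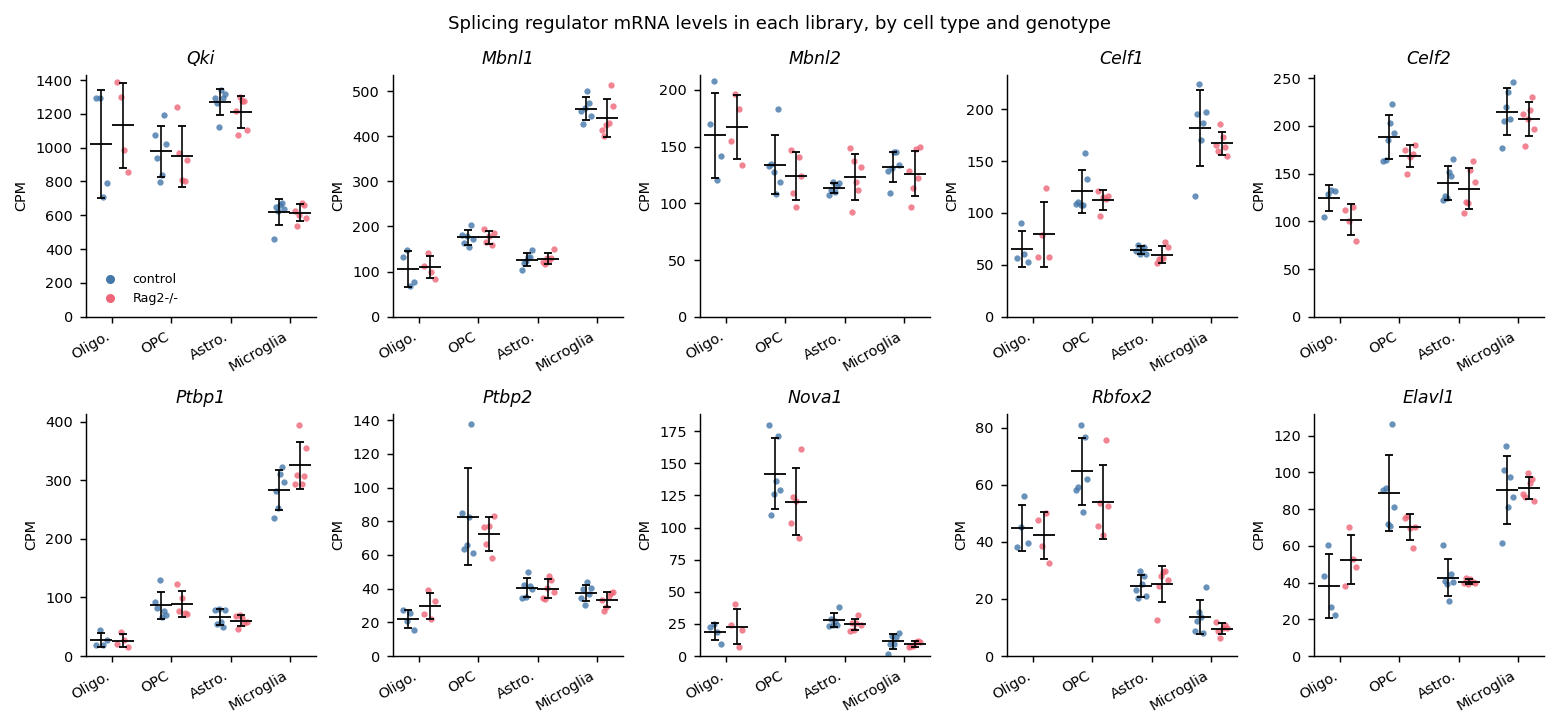
CPM of each gene in every library (points), by cell type, on a linear axis that starts at 0, with control and Rag2-/- libraries in separate colours and the mean and SD of each group in black. Mbnl1 (400.0 to 514.2 CPM) and Ptbp1 (235.6 to 394.9 CPM) sit above all other libraries in microglia, and Nova1 (91.82 to 179.6 CPM) and Ptbp2 (58.03 to 137.7 CPM) in OPCs.

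Qki (ENSMUSG00000062078, chr17:10411459-10539275, minus strand) was high in macroglia and lowest in microglia. Its CPM ran from 1077 over a median of 1275 to 1338 in astrocytes, from 705.3 over 1139 to 1386 in oligodendrocytes, from 798.7 over 937.5 to 1240.3 in OPCs and from 461.9 over 631.0 to 674.7 in microglia. Every microglia library was thus below every other library, while the ranges of the other 3 cell types overlapped. With TMM the order of the first 2 turned. Qki was then 3.25-fold higher in oligodendrocytes than in microglia (95% interval 2.90 to 3.65, adjusted p = 1.23e-21), 2.44-fold higher in astrocytes than in microglia (2.19 to 2.71, adjusted p = 5.26e-19) and 1.43-fold higher in OPCs than in microglia (1.29 to 1.59, adjusted p = 1.11e-07). These directions held under every scaling. Astrocytes were 1.70-fold above OPCs (1.53 to 1.90, adjusted p = 4.18e-11). Oligodendrocytes were 1.33-fold above astrocytes with TMM (1.19 to 1.5, adjusted p = 4.99e-05), but the direction turned with total counts (log2 difference -0.22), and with control libraries alone the call was lost (0.26). Qki in astrocytes was read together with the 3857.3 to 5714.1 CPM of oligodendrocyte markers there, whose part in its level was not tested.

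The step of Qki from OPCs to oligodendrocytes depended most on the scaling. With TMM it was 2.27-fold (2.02 to 2.55, adjusted p = 4.19e-15), while with total counts the log2 difference was 0.15 (adjusted p = 0.234). Total counts moved the median of all genes to -1.25, where it was -0.24 with TMM. Relative to the median of all genes, Qki was 1.40 to 1.42 higher on the log2 scale in oligodendrocytes under all 4 scalings tried. Mitochondrial genes took 53.9% of the counts in the median oligodendrocyte library and 27% in the median OPC library.

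**Figure D3:**
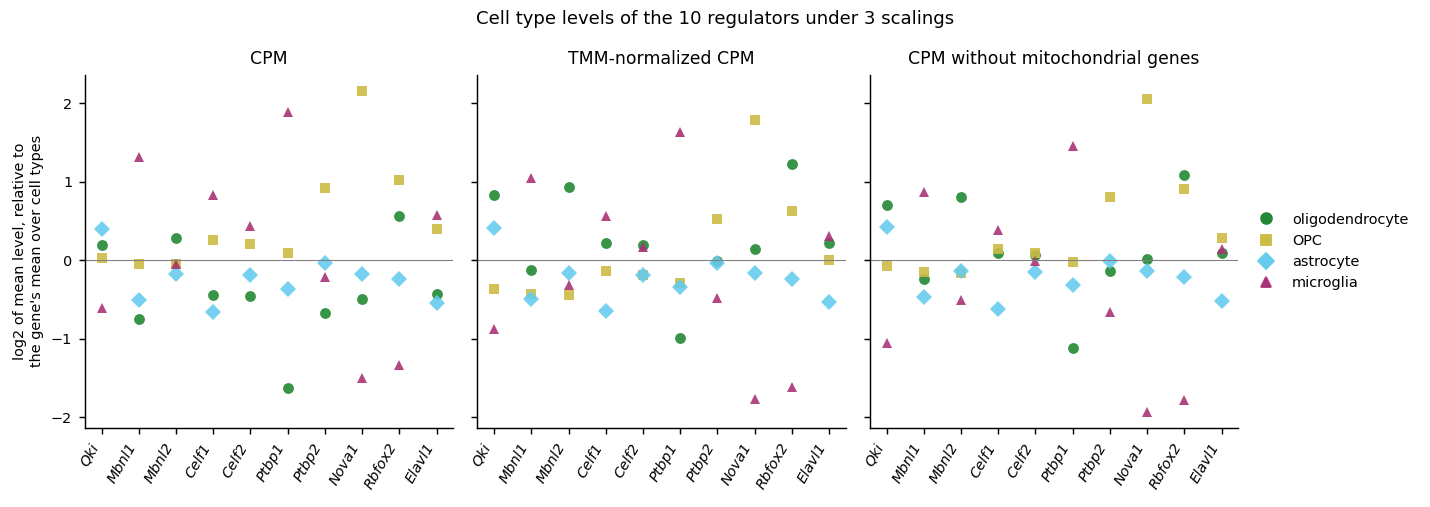
Log2 of the mean level of each gene in each cell type relative to that gene's mean over the 4 cell types, in CPM, TMM-normalized CPM and CPM without mitochondrial genes, with 1 symbol per cell type. Mean Qki was highest in astrocytes in CPM (1240 against 1076 in oligodendrocytes) and highest in oligodendrocytes in TMM-normalized CPM (1733 against 1291 in astrocytes), while it was lowest in microglia on all 3 scales.

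Within oligodendrocytes the Qki level differed between littermate pairs. The control and Rag2-/- libraries held 1295 and 1386 CPM in pair 1, 1293 and 1300 CPM in pair 3, 705.3 and 986.3 CPM in pair 5, and 792.1 and 854.3 CPM in pair 6. Both libraries of pairs 1 and 3 were above both libraries of pairs 5 and 6. The mice of pairs 1 and 3 were male, and those of pairs 5 and 6 were female except for the control of pair 6, so that pair and sex largely coincide here. By sex, the log2 difference of Qki in oligodendrocytes was -0.30 (female minus male, 95% interval -0.67 to 0.07, edgeR adjusted p = 0.681). The summed neuron markers moved the other way, with 725.0 and 829.6 CPM in pair 1, 549.3 and 486.3 in pair 3, 1501.5 and 1585.2 in pair 5, and 1989.2 and 1364.7 in pair 6, and their part in the Qki level was not tested.

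Mbnl1, a zinc finger protein that is sequestered by repeat RNA in myotonic dystrophy, was highest in microglia. Its CPM ran from 400.0 over 450.3 to 514.2 in microglia and stayed between 67.38 and 203.2 in all other libraries. Mbnl1 in microglia was 2.93-fold above astrocytes (2.60 to 3.30, adjusted p = 5.13e-20), 2.80-fold above OPCs (2.48 to 3.16, adjusted p = 7.96e-19) and 2.27-fold above oligodendrocytes (1.98 to 2.59, adjusted p = 3.10e-14). Its smaller differences between oligodendrocytes and OPCs (log2 0.30) and between oligodendrocytes and astrocytes (0.37) were called with TMM but turned to -0.71 and -0.25 with total counts, and the first also to -0.10 without mitochondrial genes. Its paralog Mbnl2 had its maximum in another cell type, with 120.4 to 207.8 CPM in oligodendrocytes (mean 163.5 ± 31.07, n = 8) against 92.57 to 183.0 CPM elsewhere. The ranges of Mbnl2 overlap in CPM, and with TMM it was 2.59-fold above OPCs (2.23 to 3.01, adjusted p = 9.33e-14), 2.13-fold above astrocytes (1.84 to 2.47, adjusted p = 1.51e-11) and 2.37-fold above microglia (2.04 to 2.75, adjusted p = 9.51e-14). Between OPCs and astrocytes Mbnl2 was called lower in OPCs with TMM (log2 difference -0.28), but total counts turned this to 0.12.

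Celf1 and Celf2, which bind GU-rich sequences, were both highest in microglia in CPM. Celf1 ran from 116.5 to 224.6 CPM in microglia (mean 174.4 ± 26.84, n = 12), from 96.75 to 157.3 in OPCs, from 52.75 to 124.1 in oligodendrocytes and from 52.19 to 72.43 in astrocytes. All astrocyte libraries were below all OPC and microglia libraries for Celf1, whereas oligodendrocyte libraries overlapped with the others. Celf1 in microglia was 2.32-fold above astrocytes (2.02 to 2.66, adjusted p = 1.85e-14) and 1.62-fold above OPCs (1.40 to 1.86, adjusted p = 8.12e-08), and OPCs were 1.44-fold above astrocytes (1.25 to 1.65, adjusted p = 3.64e-05). The second of these calls was lost without mitochondrial counts (log2 difference -0.24) and the third with Rag2-/- libraries alone (0.44). Between oligodendrocytes and OPCs the log2 difference of Celf1 was 0.33 (adjusted p = 0.0150). It turned to -0.70 with total counts and to -0.08 without mitochondrial genes, and the call was lost without the mouse of control 3 (0.28, adjusted p = 0.0625) or that of Rag2-/- 5 (0.17, adjusted p = 0.174) and with the mouse as a block (0.25).

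Celf2 was the member with the smallest range between cell types with TMM. Its CPM ran from 177.1 to 245.6 in microglia, 149.1 to 223.2 in OPCs, 108.7 to 165.2 in astrocytes and 79.55 to 133.1 in oligodendrocytes, so that neighbouring cell types overlapped. With TMM no called difference of Celf2 reached a fold of 1.5, and microglia were 1.28-fold above astrocytes (1.14 to 1.43, adjusted p = 1.91e-04). The cell type with the highest Celf2 depended on the scaling, being microglia in CPM, oligodendrocytes with TMM and OPCs in CPM without mitochondrial genes.

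Ptbp1, the repressor of neuronal exons, showed the widest range between cell types of the members highest in microglia. Its CPM ran from 235.6 over 302.1 to 394.9 in microglia, from 66.31 over 77.51 to 130.5 in OPCs, from 45.33 over 61.58 to 80.82 in astrocytes and from 15.13 over 23.66 to 43.97 in oligodendrocytes. In CPM, all microglia libraries were above, and all oligodendrocyte libraries below, every library of the other cell types. In CPM without mitochondrial genes, oligodendrocytes (37.89 to 81.16) overlapped with astrocytes (58.51 to 122.5). Ptbp1 in microglia was 6.29-fold above oligodendrocytes (5.06 to 7.83, adjusted p = 8.10e-19), 3.98-fold above astrocytes (3.32 to 4.77, adjusted p = 1.42e-17) and 3.85-fold above OPCs (3.20 to 4.64, adjusted p = 1.06e-16). Oligodendrocytes were lower than OPCs (log2 difference -0.71, adjusted p = 1.29e-04) and than astrocytes (-0.66, adjusted p = 1.66e-04), and OPCs and astrocytes were not called different. Of the windows of 50 bases in Ptbp1 (chr10:79690261-79700605, plus strand), 11.1% recur at another place of GRCm39, against at most 2.2% for the other members. Of its exonic bases, 21% overlap genes on the opposite strand, among them Plppr3, against at most 4.3% for the other members. Whether reads were counted by strand is not given in the sources used here, so part of the Ptbp1 reads could belong to such genes.

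Ptbp2, which neurons use in place of Ptbp1, was highest in OPCs. It ran from 58.03 over 76.86 to 137.7 CPM in OPCs and from 15.21 to 49.84 CPM in all other libraries, with no overlap. In CPM without mitochondrial genes, OPCs (83.51 to 177.4) also stayed above oligodendrocytes (36.47 to 81.66). In TMM-normalized CPM, however, libraries of OPCs and oligodendrocytes overlapped. Ptbp2 in OPCs was 2.00-fold above microglia (1.70 to 2.36, adjusted p = 5.53e-10), 1.46-fold above astrocytes (1.24 to 1.72, adjusted p = 1.61e-04) and 1.46-fold above oligodendrocytes (1.21 to 1.75, adjusted p = 9.09e-04). The last 2 of these calls were lost with Rag2-/- libraries alone (0.37 and -0.26 for OPCs minus astrocytes and oligodendrocytes minus OPCs on the log2 scale). Of the cell types, oligodendrocytes had the lowest mean Ptbp2 in CPM (25.88 against 35.44 in microglia). With TMM, however, they were 1.37-fold above microglia (1.15 to 1.64, adjusted p = 0.00168). Total counts turned this direction (log2 difference -0.46), and with control libraries alone the call was lost (0.1).

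Nova1, an RNA-binding protein first found as a neuronal autoantigen, was the member most restricted to 1 cell type. It ran from 91.82 over 126.0 to 179.6 CPM in OPCs, from 19.66 to 38.25 in astrocytes, from 6.696 to 40.23 in oligodendrocytes and from 1.692 to 17.58 in microglia. Every OPC library was above every other library, and astrocytes and oligodendrocytes overlapped and were not called different. Nova1 in OPCs was 11.7-fold above microglia (8.68 to 15.8, adjusted p = 2.07e-18), 3.83-fold above astrocytes (2.89 to 5.08, adjusted p = 1.19e-10) and 3.11-fold above oligodendrocytes (2.25 to 4.30, adjusted p = 2.16e-07). Summed neuron markers were 532.5 to 966.0 CPM in OPCs and 486.3 to 1989.2 CPM in oligodendrocytes, and their part in the Nova1 level was not tested.

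Rbfox2, which binds UGCAUG and regulates exons of cytoskeletal and membrane proteins, was lowest in microglia. Its CPM ran from 42.45 to 81.17 in OPCs, from 32.69 to 56.16 in oligodendrocytes, from 12.77 to 29.87 in astrocytes and from 6.225 to 24.22 in microglia. All oligodendrocyte and OPC libraries were above all others. Rbfox2 was 7.20-fold higher in oligodendrocytes than in microglia (5.68 to 9.13, adjusted p = 1.27e-18), 4.76-fold higher in OPCs than in microglia (3.81 to 5.95, adjusted p = 2.84e-16) and 2.61-fold higher in astrocytes than in microglia (2.10 to 3.24, adjusted p = 1.58e-10). Oligodendrocytes exceeded astrocytes 2.76-fold (2.19 to 3.47, adjusted p = 6.44e-10). Oligodendrocytes were also above OPCs with TMM (log2 0.60, adjusted p = 0.00406), but below them with total counts (-0.44).

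Elavl1 was higher in microglia and OPCs than in astrocytes. Its CPM ran from 61.54 to 114.6 in microglia, from 58.80 to 126.7 in OPCs, from 22.24 to 70.38 in oligodendrocytes and from 29.91 to 60.61 in astrocytes, so that no cell type stood apart from all others. Elavl1 was 1.80-fold higher in microglia than in astrocytes (1.53 to 2.11, adjusted p = 1.48e-08), 1.65-fold higher in oligodendrocytes than in astrocytes (1.39 to 1.97, adjusted p = 5.60e-06) and 1.43-fold higher in OPCs than in astrocytes (1.22 to 1.68, adjusted p = 3.03e-04). The difference between oligodendrocytes and astrocytes fell short of the threshold with total counts (log2 0.11), and that between OPCs and astrocytes with Rag2-/- libraries alone (0.30). OPCs were lower than microglia with TMM (log2 difference -0.33, adjusted p = 0.0113), but higher by 0.13 without mitochondrial genes.

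Ratios of paralogs inside a library, which no scaling between libraries changes, give the balance between the messages of related proteins. The ratio of Ptbp1 to Ptbp2 counts per exonic length had a geometric mean of 22.1 in microglia (17.71 to 34.64, n = 12), 4.06 in astrocytes (2.978 to 5.981, n = 12), 2.90 in OPCs (1.449 to 5.104, n = 11) and 2.56 in oligodendrocytes (1.195 to 5.431, n = 8). No microglia library overlapped with another cell type. The ratio of Mbnl1 to Mbnl2 was 2.75 in microglia (2.282 to 3.297), 1.08 in OPCs (0.871 to 1.446), 0.847 in astrocytes (0.635 to 0.991) and 0.506 in oligodendrocytes (0.421 to 0.616). Mbnl2 thus exceeded Mbnl1 per length in all 8 oligodendrocyte libraries and Mbnl1 exceeded Mbnl2 in all 12 microglia libraries. The ratio of Celf1 to Celf2 varied less, with 2.48 in microglia, 1.97 in OPCs, 1.87 in oligodendrocytes and 1.38 in astrocytes. The height of these ratios depends on the length used, while their differences between cell types on the log2 scale do not. With the length of the canonical transcript the ratio of Celf1 to Celf2 was below 1 in every cell type (0.838, 0.665, 0.632 and 0.465 in microglia, OPCs, oligodendrocytes and astrocytes). That of Mbnl1 to Mbnl2 was then 0.561 in OPCs and 1.43 in microglia, and that of Ptbp1 to Ptbp2 was 10.4 in microglia and 1.21 in oligodendrocytes.

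Compared over the mice that gave both cell types, 15 of these 18 ratio contrasts had an adjusted p under 0.05 in an exact two-sided permutation test by sign flips. The log2 ratio of Ptbp1 to Ptbp2 was lower in astrocytes than in microglia in 12 of 12 mice, with a mean difference of -2.45 (SD 0.477, exact adjusted p = 0.00251). Between oligodendrocytes and microglia the difference was -3.13 (SD 0.823, lower in 8 of 8 mice, exact adjusted p = 0.0108). That of Mbnl1 to Mbnl2 differed between oligodendrocytes and OPCs by -1.09 (SD 0.241, lower in 7 of 7 mice, exact adjusted p = 0.0188). The 3 contrasts that missed the threshold were those between oligodendrocytes and OPCs for the PTBP genes (exact adjusted p = 0.375) and the CELF genes (exact adjusted p = 0.248) and between oligodendrocytes and microglia for the CELF genes (exact adjusted p = 0.0967). The last passed it without the mouse of Rag2-/- 5, with a log2 difference of -0.53 (exact adjusted p = 0.0187).

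**Figure D4:**
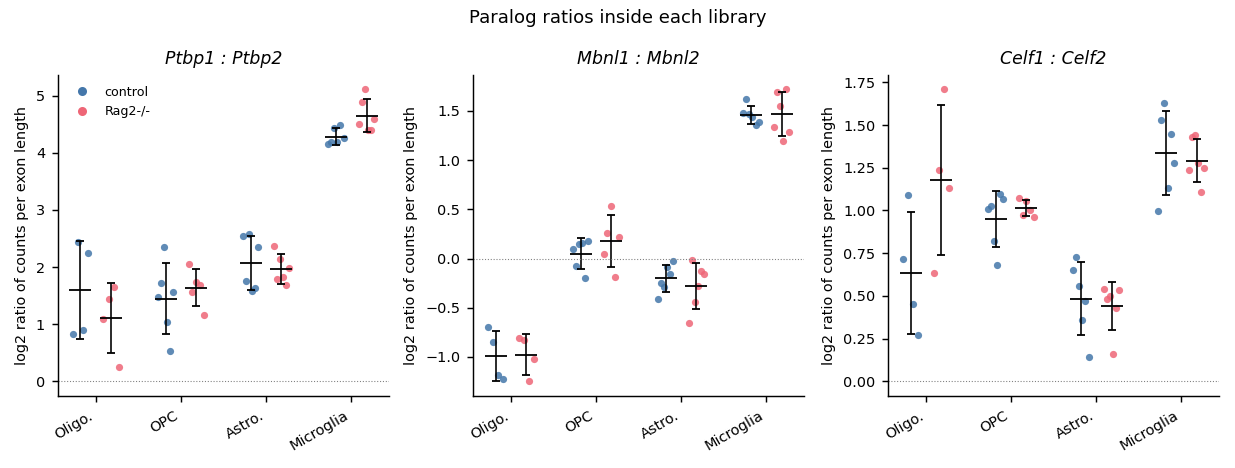
Log2 ratios of Ptbp1 to Ptbp2, Mbnl1 to Mbnl2 and Celf1 to Celf2 per exonic length in every library, by cell type and genotype, with the mean and SD of each group in black. The PTBP ratio of microglia (4.15 to 5.11) lies above all other libraries, and the MBNL ratio is below 0 in all oligodendrocyte libraries (-1.25 to -0.70) and above 0 in all microglia libraries (1.19 to 1.72).

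Other genes of the same families were mostly higher in oligodendrocytes and OPCs than in astrocytes and microglia, under all 4 scalings. Of 15 listed paralogs, 14 passed the filter, and Mbnl3, at 0 counts in most libraries, did not. Between OPCs and microglia 12 were higher and 2 lower in OPCs (median log2 difference 2.50 against 0.18 for all genes), where 38.7% of all genes tested were higher and 30.8% lower. Between oligodendrocytes and microglia 10 were higher and 2 lower in oligodendrocytes (3.28 against -0.09), with 33.2% of all genes higher and 34.8% lower. Between astrocytes and microglia 7 were higher and 2 lower in astrocytes (0.64 against 0.09), with 36.5% of all genes higher and 33.5% lower. Against astrocytes, 13 were higher in OPCs and 12 in oligodendrocytes with none lower, where 25.4% and 25.7% of all genes were higher. Between oligodendrocytes and OPCs 5 were higher and 3 lower in oligodendrocytes with TMM (0.13 against -0.24) but 3 higher and 8 lower with total counts, and of all genes 15.7% were higher and 25% lower with TMM. Ptbp3, the third PTB protein, went the way of Ptbp1, with 454.8 ± 40.09 CPM in microglia (n = 12) and means of 125.4 in OPCs, 42.54 in oligodendrocytes and 20.04 in astrocytes. Nova2 had its highest mean in OPCs like Nova1, at 76.41 CPM against 31.42 in oligodendrocytes, 18.37 in astrocytes and 3.977 in microglia. Elavl3, a neuronal relative of Elavl1, ran from 78.72 CPM in oligodendrocytes to 2.769 CPM in microglia (log2 difference 5.72), whereas Elavl1 had its highest mean CPM in microglia. Celf4 (means of 107.7, 98.45, 32.54 and 19.46 CPM in oligodendrocytes, OPCs, astrocytes and microglia) and Rbfox1 (48.77, 32.72, 7.928 and 10.18 CPM) are best known from neurons. In oligodendrocytes and OPCs they were read beside the neuron markers given above. These markers summed to less in astrocytes (148.8 to 338.7 CPM) and in microglia (62.0 to 147.9 CPM). Their part in the levels of Celf4, Rbfox1, Nova2, Elavl3 and the other paralogs was not tested.

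Messages known as targets of QKI were mostly those of myelin proteins and had their highest levels in oligodendrocytes. Mbp, the message of myelin basic protein, averaged 12160 ± 1283 CPM in oligodendrocytes (n = 8), 2510 in astrocytes, 412.5 in OPCs and 61.18 in microglia. Of 6 listed targets, 5 were called between oligodendrocytes and OPCs, where 15.7% of all genes were called higher and 25% lower in oligodendrocytes, and among the 5 Mbp (log2 difference 5.91), Mag (4.61) and Map1b (2.14) were higher in oligodendrocytes. The list was made of genes already known as oligodendrocyte messages, so its direction is no independent evidence. Cdkn1b, a cell cycle inhibitor, averaged 17.52 CPM in oligodendrocytes and 45.85 in OPCs, and Hnrnpa1, itself a splicing factor, 34.50 CPM in oligodendrocytes and 150.7 in microglia. With TMM the log2 difference between oligodendrocytes and OPCs was -0.41 for Cdkn1b (adjusted p = 0.0390, or 0.0682 with DESeq2 size factors) and -0.23 for Hnrnpa1, which was not called. Neither of these messages was thus higher where Qki was higher in this comparison.

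Most SR and hnRNP genes were higher in microglia than in the other cell types with TMM. Of 13 SR proteins, which bind exonic enhancers, 9 were lower and 2 higher in astrocytes than in microglia, 11 lower and 2 higher in oligodendrocytes and 10 lower and 3 higher in OPCs. Of all genes, 33.5%, 34.8% and 30.8% were lower in these comparisons. Without mitochondrial genes 6 SR genes were lower and 3 higher in OPCs than in microglia. Srsf7 and Srsf9 each had a log2 difference of -1.95 between astrocytes and microglia (adjusted p = 7.05e-16 and 8.36e-13), and Srsf12 was higher by 2.04 (SE 0.50, adjusted p = 4.00e-04). Of 22 hnRNP genes, whose products often repress exons, 18 were lower and 2 higher in astrocytes than in microglia, with -2.38 for Hnrnpab (adjusted p = 2.66e-18) and -2.19 for Hnrnpf (adjusted p = 2.92e-13). Between oligodendrocytes and OPCs 7 SR genes were lower and none higher in oligodendrocytes, and 7 hnRNP genes were lower and 5 higher (21 lower and 0 higher with total counts), against 25% of all genes lower and 15.7% higher, with -1.28 for Hnrnpa0 (adjusted p = 3.76e-06). Qki, Nova1, Rbfox2 and Ptbp2 were called in the other direction, higher in oligodendrocytes, OPCs and astrocytes than in microglia. This was by 3.06- to 11.7-fold for Nova1 and by 1.37- to 2.00-fold for Ptbp2. For Ptbp2, total counts turned the direction in oligodendrocytes, as given above, and lost the call in astrocytes (log2 difference 0.18). Control libraries alone lost the call in oligodendrocytes (0.1) and in astrocytes (0.35). Without the filter on low counts it was lost in oligodendrocytes (0.39).

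Genes whose levels were among the most like those of a member over the 43 libraries are given as a description, by Pearson's r of TMM log2 CPM among 14711 protein-coding genes. The libraries share cell types and mice, so r mostly describes the difference between cell types. For Qki they were Hipk2 (r = 0.975), Mast4 (0.973) and Mobp (0.963), the last a myelin gene. For Ptbp1 they were Nfkbiz (0.946), Btg1 and Ndel1, and for Mbnl1 Actr2 (0.968), Serinc3 and Snx5. Nova1 was most like D630045J12Rik (0.944), Cdo1 and Vcan, a proteoglycan of OPCs. Mbnl2 was closest to Kif5b (0.933), Secisbp2l and Atp8a1, Celf1 to Wipf1 (0.908), Smap2 and Hipk3, and Rbfox2 was close to Hectd4 (0.943) and Dock3 (0.942). The likeness was lower for Ptbp2 with Gramd1c (0.846), Rev3l and Adamtsl3, for Elavl1 with Tomm70a (0.812) and Runx1, and for Celf2 with Mycbp2 (0.759), Naa50 and Ywhag.

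None of the 10 genes was called different between Rag2-/- and control glia in any cell type. In edgeR's test with sex in the model, 0 of the 40 tests of a member passed an adjusted p of 0.05 and 1 had an unadjusted p under 0.05, and neither DESeq2 nor limma voom called any of them. The share of all genes tested that was called was 0% in oligodendrocytes and, in OPCs, microglia and astrocytes, 0.00592%, 0.00667% and 0.00679%. In oligodendrocytes this means that Iftap was not called either. It had 34 to 77 counts in control and 0 to 2 counts in Rag2-/- oligodendrocyte libraries. The lack of calls for the members in oligodendrocytes has to be read with this limit. The CPM ranges of control and Rag2-/- libraries overlapped for all 10 genes in all 4 cell types. How often such ranges overlapped among all genes was not counted. The design left room for differences in oligodendrocytes, where the median distance from estimate to end of the 95% interval was 0.61 on the log2 scale, against 0.22 in microglia, 0.27 in OPCs and 0.28 in astrocytes. DESeq2 called 205 genes in oligodendrocytes, none of them a member.

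Qki averaged 1021 ± 316.8 CPM in control and 1132 ± 252.3 CPM in Rag2-/- oligodendrocytes (SD, n = 4 each). It was higher in the Rag2-/- library in 4 of 4 pairs, but the difference was not called, with a log2 fold change of 0.28 (95% interval -0.08 to 0.64, edgeR adjusted p = 0.998), or 0.21 with the littermate pair as a block (edgeR adjusted p = 0.998). The counts are per gene, so the isoforms of Qki, which differ in their last exons, cannot be told apart, nor can the place of the protein in the cell. In OPCs Qki averaged 977.8 ± 148.6 CPM in 6 control libraries and 948.6 ± 178.5 CPM in 5 Rag2-/- libraries, and the log2 fold change was 0.01 (-0.21 to 0.24, or -0.05 with total counts). In astrocytes it was 0.05 (-0.15 to 0.25, or -0.06 with total counts) and in microglia 0.02 (-0.17 to 0.20, or -0.01 with total counts), so that with TMM the intervals of these 3 cell types ended within 0.25 of 0.

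**Figure D5:**
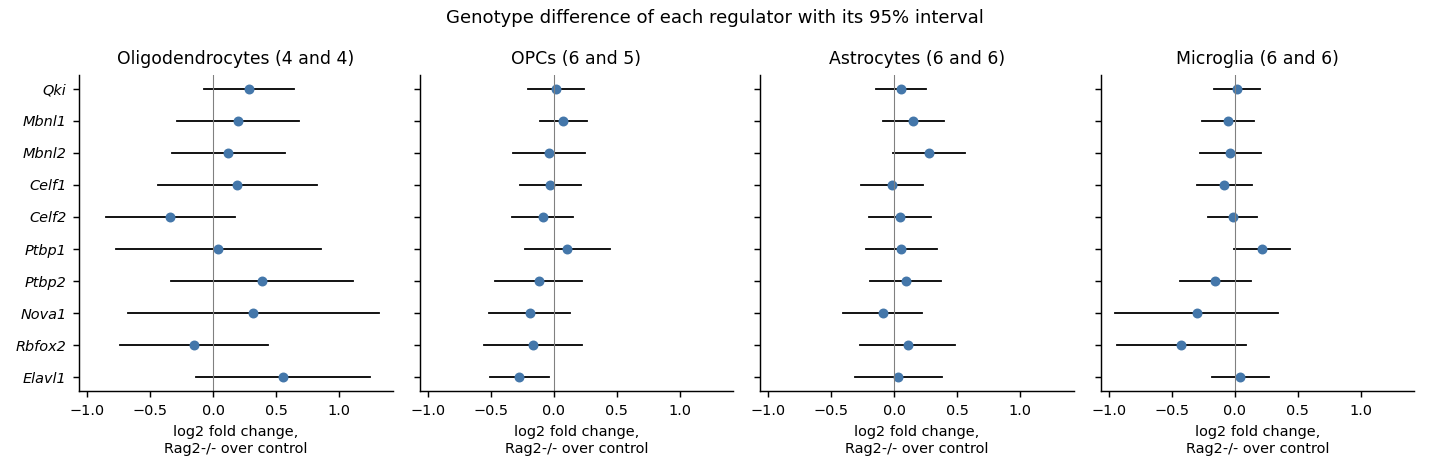
Log2 fold change of each gene between Rag2-/- and control libraries in each cell type with its 95% interval, from edgeR with TMM. All estimates lie between -0.42 and 0.55, and the intervals are widest in oligodendrocytes.

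Elavl1 in OPCs came nearest to a difference. It held 71.0, 71.9, 81.5, 90.4, 91.3 and 126.7 CPM in the 6 control libraries and 58.8, 69.7, 70.1, 75.4 and 76.5 CPM in the 5 Rag2-/- libraries. Most Rag2-/- libraries were at the low end of the control range or under it, and the log2 fold change was -0.27 (-0.51 to -0.04) with an edgeR adjusted p of 1.00. The OPC library with the most astrocyte markers, at 8071.1 CPM, was Rag2-/-, and the part of these markers was not tested. In oligodendrocytes the estimate for Elavl1 had the other sign, 0.55 (-0.14 to 1.24, not called). Whether the effect of genotype differed between cell types was tested for every gene at once in the joint fit, where 53 of 21368 genes (0.248%) and 0 members were called, and the adjusted p of Elavl1 was 0.428. Ptbp1 in microglia ran from 235.6 over a median of 289.6 to 322.6 CPM in controls and from 293.9 over 308.1 to 394.9 CPM in Rag2-/- libraries (log2 fold change 0.22, not called). Mbnl2 in astrocytes (0.28) and Rbfox2 in microglia (-0.42) were not called either. The ratio of Ptbp1 to Ptbp2 in microglia was higher in Rag2-/- libraries by 0.36 on the log2 scale (exact permutation p = 0.0173, adjusted over 12 ratio tests 0.208), and none of the 12 ratios passed the threshold by genotype.

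No gene of the wider lists was called by genotype in any cell type.

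Sex was compared in the same fits, as female minus male, and 0 of 40 member tests were called, with 2 at an unadjusted p under 0.05 and none called by DESeq2 or limma voom. The share of all genes called by sex was 0.0296% in OPCs, 0.0362% in oligodendrocytes, 0.0407% in astrocytes and 0.0467% in microglia. The 2 were Ptbp1 in astrocytes, at -0.51 on the log2 scale (95% interval -0.80 to -0.22, edgeR adjusted p = 0.633), and Elavl1 in OPCs, at 0.29 (0.06 to 0.53, edgeR adjusted p = 0.999).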

How the data were processed

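RNA of 43 libraries of immunopanned cortical glia was sequenced by the authors, aligned with STAR 2.7.8a to the mouse genome GRCm39 and counted per gene with HTSeq. The deposited values are whole-number counts of read pairs per gene, with no normalization. Whether strand was used is not given in the sources used here. Between 33.5% and 52.0% of read pairs were assigned to no gene and were left out. Symbols and coordinates came from GENCODE M39, which held 54749 of the 55416 gene identifiers.

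Groups, sexes and littermate pairs were taken from the labels. The members, gene lists and tests were chosen with earlier results of these data known. CPM were computed over all counts on genes. Genotype and sex were tested within each cell type, and cell types in a joint fit of all libraries with sex as a term, using edgeR 4.0.16 in R 4.3.3 (quasi-likelihood test, TMM, at least 10 counts per library of the smallest group and 15 in all, 95% intervals). Alternatives used DESeq2 1.42.0 and limma 3.58.1. P-values were adjusted over all genes tested (adjusted p under 0.05). Paralog ratios were log2 ratios of counts plus 0.5 per exonic length, compared by exact two-sided permutation (Python 3.11.15 with numpy 2.4.6). The procedure was tested on simulated data. Named were all members, paralogs and QKI targets, up to 2 SR and hnRNP genes per direction with the largest called change of at least 2-fold between oligodendrocytes and OPCs and between astrocytes and microglia, and the 3 genes most like each member. Some items that fall under this rule, and some motif matches, are not reported here. Libraries of a group differed by at least 8.18 times the counting error (chi-square per gene) and each counted as 1 sample. Every member had at least 11 counts in every library.

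Libraries of a littermate pair deviated together only weakly (mean correlation over genes 0.048 in microglia, 0.060 in OPCs, 0.067 in astrocytes and 0.074 in oligodendrocytes, against -0.024 to -0.010 for other pairs). The pairing comes from the labels. P-values by genotype and by sex within a cell type, and those of the paralog ratios, measure the spread between mice. Those of the joint fit measure the spread between libraries, since a mouse gave several libraries and the fit held no term for it.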

Additional observations from a re-analysis of the deposited data

Results flagged for a closer look

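Over 10 genes and 3 paralog ratios in 8 groups of 4 to 6 libraries, there were 9 cases of a library whose gap to the nearest other library was large against the whole range of its group (Dixon's 95% criterion). Chance flags about 1 in 20 groups, and no cause was tested.

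Qki had 2 such libraries, both low. The microglia library of control 1 held 461.9 CPM against 627.1 to 674.7 CPM in the other 5 controls, and the astrocyte library of control 3 held 1121 CPM against 1263 to 1338 CPM. The microglia value is the lowest of all 43 libraries for Qki, and the other microglia controls were also below every oligodendrocyte, OPC and astrocyte library.

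The OPC library of control 5 stood apart for 3 members at once and was high in each. It held 183.0 CPM of Mbnl2 against 108.3 to 135.1 CPM in the other 5 controls, 137.7 CPM of Ptbp2 against 60.98 to 84.99 CPM, and 126.7 CPM of Elavl1 against 70.97 to 91.32 CPM. Pair 5 gave no Rag2-/- OPC library.

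The others were single. Celf2 was at 104.3 CPM in the oligodendrocyte library of control 1 against 128.6 to 133.1 CPM in the other 3 controls. Nova1 was at 38.25 CPM in the astrocyte library of control 6 against 23.69 to 28.98 CPM. Rbfox2 was at 12.77 CPM in the astrocyte library of Rag2-/- 1 against 24.69 to 29.72 CPM. The log2 ratio of Celf1 to Celf2 was 0.163 in the astrocyte library of Rag2-/- 4 against 0.428 to 0.542 in the other 5.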

How the results depend on the processing

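No alternative called a member by genotype, by sex or in the test of the genotype effect between cell types. Over all genes, calls by genotype were 0, 1, 1 and 1 in oligodendrocytes, OPCs, astrocytes and microglia. They rose without the filter on low counts to 14, 90, 30 and 9 and with DESeq2 to 205 in oligodendrocytes, 5 in OPCs and 3 in microglia, and leaving out 1 library gave 1 to 2 in microglia. Calls by sex were 5, 5, 6 and 7, without the filter 99, 72, 118 and 25, with DESeq2 432, 13, 19 and 11, and in oligodendrocytes 2 with limma voom and 3 to 5 with 1 library left out. Genes whose genotype effect differed between cell types were 53, or 28 with total counts, 1011 without the filter, 2 with limma voom, 456 with DESeq2 and 18 to 113 with 1 mouse left out. The cause of these shifts was not tested.

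Between cell types, total counts called 14634 genes between oligodendrocytes and OPCs, control libraries alone 5351 and Rag2-/- libraries alone 5402, and between OPCs and astrocytes control libraries alone called 5924 and Rag2-/- libraries alone 4970, with fewer libraries in each fit. Members called between oligodendrocytes and OPCs were 5 without mitochondrial counts and 5 with Rag2-/- libraries alone, between oligodendrocytes and astrocytes 5 with total counts and 5 with control libraries alone, and between OPCs and astrocytes 4 with Rag2-/- libraries alone. In CPM without mitochondrial genes 6 of 10 members were highest in the same cell type as in CPM.

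Of the differences of members called between cell types, directions turned with total counts (9) and without mitochondrial counts (5) and under none of the other settings run. Differences that were not called turned more often. Leaving out 1 mouse with all its libraries turned 38 of 120 values between cell types. Leaving out 1 library turned 35 of 430 values by genotype and 45 of 430 by sex. For Qki by genotype leaving out 1 library gave log2 fold changes of -0.07 to 0.06 in OPCs and -0.00 to 0.04 in microglia. With total counts Qki by genotype was -0.01 in microglia, -0.05 in OPCs and -0.06 in astrocytes, and without mitochondrial counts -0.00 in microglia. With total counts the log2 difference between oligodendrocytes and OPCs turned to -0.71 for Mbnl1, -0.70 for Celf1, -0.66 for Celf2 and -0.44 for Rbfox2, that between oligodendrocytes and astrocytes to -0.22 for Qki, -0.25 for Mbnl1 and -0.28 for Celf2, that of Ptbp2 between oligodendrocytes and microglia to -0.46 and that of Mbnl2 between OPCs and astrocytes to 0.12. Without mitochondrial counts it turned between oligodendrocytes and OPCs to -0.10 for Mbnl1, -0.08 for Celf1 and -0.03 for Celf2, and between OPCs and microglia to 0.10 for Celf2 and 0.13 for Elavl1. These are shifts of the whole scale, since total counts moved the median of all genes between oligodendrocytes and OPCs from -0.24 to -1.25.

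With the littermate pair as a block, 0, 1, 1 and 1 genes were called by genotype and 0 members. With the mouse as a block 8 members were called between oligodendrocytes and OPCs, the call lost being that of Celf1 (0.25), and the block changed no other call.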
